A study of Mus musculus with 6 samples.

Results

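The unfolded protein response genes described here are 31 named genes, read by symbol from a table of 54532 gene rows. They fall into 12 chaperones and folding factors of the endoplasmic reticulum, 2 genes of the IRE1-XBP1 arm, 1 gene of the ATF6 arm, 9 genes of the PERK-ATF4 arm and 7 genes of ER-associated degradation. The rule that picks them uses their names and no measured value, but the list was drawn up with earlier results of these data known. The symbol Ddit3 stands on a second row, ENSMUSG00000116429, which is listed at 0 in all 6 libraries. The other row, with reads, stands for the gene.

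RNA was sequenced from F4/80-positive cells of the peritoneal cavity, F4/80 being a surface protein of macrophages. All mice were of the C57BL/6 strain, carried both p16-Cre and Rosa26-mTmG, and had been housed for 12 months when cells were taken. In such mice a cell and its descendants switch from tdTomato to EGFP once the Cre driven by the p16 promoter has acted, so EGFP records past as well as present promoter activity. Cells were enriched on magnetic beads and sorted by flow cytometry, and the EGFP fraction (p16High) and the tdTomato fraction (p16Low) gave 3 libraries each. The question of the comparison is how macrophages in which the p16 promoter is or was active, a mark used for senescent cells, differ from the rest. Whether replicates are separate animals is not in the labels, so p-values speak only of library-to-library spread, which may be technical.

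The unfolded protein response adjusts the protein-folding capacity of the endoplasmic reticulum (ER) to its load. Its sensors are 3 membrane proteins: IRE1 splices Xbp1 mRNA into the form that encodes an active transcription factor, ATF6 is cut in the Golgi to release one, and PERK phosphorylates eIF2α, which lowers translation and raises that of ATF4. XBP1 and ATF6 are known to induce chaperones and degradation factors, and ATF4 to induce Ddit3 (CHOP) and genes of amino acid supply. The pathway serves secretory load in plasma cells and is tied to cytokine output in macrophages. Gene-level FPKM (fragments per kilobase and per M reads) measures mRNA amount only, and reports neither Xbp1 splicing nor sensor phosphorylation nor ATF6 cleavage.

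The DNA elements through which these factors act were looked for in windows from 250 bases before to 50 bases after the RefSeq transcript start (GRCm38.p6). Windows were found for 26 of the 31 genes. The ER stress response element, CCAAT, any 9 bases, then CCACG, was searched on both strands. It stood in the windows of 7 of these 26 genes (26.9%), against 39 of 32851 windows of all genes (0.119%). Here and below the units differ. The first share counts genes, which have 28 windows between them, and the second counts windows, those of the members included. These sites are shown because the element is a known meeting point of ATF6 with folding and degradation genes named below. Capitals mark the fixed letters, and each sequence is given on the strand that carries the element.

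Hspa5, chr2:34772013-34772055, plus strand: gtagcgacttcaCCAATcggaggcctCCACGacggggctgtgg
Hsp90b1, first site, chr10:86705626-86705668, minus strand: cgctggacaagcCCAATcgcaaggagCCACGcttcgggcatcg
Hsp90b1, second site, chr10:86705521-86705563, plus strand: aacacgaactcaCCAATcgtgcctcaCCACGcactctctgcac
Pdia6, chr12:17266479-17266521, plus strand: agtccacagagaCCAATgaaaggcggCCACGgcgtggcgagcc
Dnajc3, chr14:118937815-118937857, plus strand: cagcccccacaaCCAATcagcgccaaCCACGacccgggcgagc
Creld2, chr15:88819508-88819550, minus strand: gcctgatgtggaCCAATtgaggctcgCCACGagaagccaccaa
Derl3, chr10:75893230-75893272, minus strand: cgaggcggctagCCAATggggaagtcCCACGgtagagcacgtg
Syvn1, chr19:6046520-6046562, plus strand: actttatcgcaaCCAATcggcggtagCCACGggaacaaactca

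The short form of the element, ATTGG, any 1 base, then CCACG, stood in the windows of 2 genes, Herpud1 and Dnajb11, against 12 of 32851 windows (0.0365%).

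Herpud1, chr8:94386365-94386399, plus strand: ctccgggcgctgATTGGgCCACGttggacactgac
Dnajb11, chr16:22857840-22857874, plus strand: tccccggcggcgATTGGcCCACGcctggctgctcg

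The element bound by ATF4 with a C/EBP partner, TGATGNAA, stood in the windows of 4 genes (15.4%), against 3.97% of all windows. These sites are shown because 3 of the 4 genes are ATF4 targets that were almost silent in these cells.

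Asns, chr6:7693213-7693244, minus strand: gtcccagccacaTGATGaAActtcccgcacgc
Chac1, chr2:119351037-119351068, minus strand: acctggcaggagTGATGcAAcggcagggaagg
Trib3, chr2:152344027-152344058, plus strand: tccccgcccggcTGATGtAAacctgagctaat
Herpud1, chr8:94386305-94386336, minus strand: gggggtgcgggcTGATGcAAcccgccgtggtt

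The XBP1 element TGACGTGG was in none of the 26 genes' windows and in 0.676% of all windows. None of the matches overlapped another. A match shows only that these letters are in this window, and the genes are named below with their levels.

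Library totals ran from 16.52 to 19.57 M reads in p16High and from 18.46 to 20.87 M in p16Low. Cdkn2a, which encodes p16, stood at 7.01, 7.84 and 5.48 FPKM in p16High, against 0.620, 0.933 and 1.71 FPKM in p16Low. The level of this gene thus followed the labels, but it sums all transcripts of the gene and is not a measure of p16 mRNA alone. Macrophage markers were abundant in all 6 libraries. One library stood apart. p16Low replicate 2 lay at 48.87 on the first principal component of all tested genes, while the other 5 lay between -15.89 and -4.70, and its mitochondrial share of reads was 1.08%, against 0.544% to 0.683% in the others. Results are therefore given with and without it. Without it, the comparison is of 3 libraries with 2.

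No unfolded protein response gene passed the test for a difference between p16High and p16Low. Of the 31 genes, 28 reached 1 FPKM in 3 or more libraries and were tested among 10895 genes with limma on log2(FPKM + 1), with Benjamini-Hochberg adjustment over all of them at 0.05. The calls included 0 of the 28, while 97 of all tested genes (0.89%) were called, 19 higher and 78 lower in p16High. None of the 28 had an unadjusted limma p under 0.05, against 344 genes higher and 443 lower of the 10895 tested. On reads worked back from the FPKM values, limma-voom called 0 of the 28 too. Without p16Low replicate 2, 4 of the 28 had an unadjusted limma p under 0.05, all higher in p16High (Manf, Hspa5, Dnajc3 and Xbp1). Of the 10895 tested genes, 540 then had such a p with p16High higher and 836 with p16High lower. The lowest adjusted p in limma was 0.731, for Syvn1. Without p16Low replicate 2, limma called 301 genes (2.76%), and again 0 of the 28. With all libraries, the 95% interval of the fold change on log2(FPKM + 1) lay within 2-fold in both directions for 26 of the 28. The exceptions were Hyou1 and Syvn1. Of all 10895 tested genes, 9759 had such an interval. The added 1 narrows the intervals of low genes. In limma-voom that of Derl3, on 11 to 28 reads per library, ran from -1.13 to 1.06 on the log2 scale.

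The small differences leaned to the p16High side. The log2 fold change, p16High over p16Low, was positive for 23 of the 28 genes (82.1%), against 58.1% of all tested genes, with a median of 0.16 against 0.051. Without p16Low replicate 2 it was positive for 20 of 28 (71.4%), against 45.4% of all, with a median of 0.06 against -0.02. For 8 of the 28 genes (28.6%) every p16High library was above every p16Low library, against 8.4% of all tested genes. These were Hspa5, Dnajc3, Pdia4, Pdia6, Xbp1, Ppp1r15a, Herpud1 and Syvn1. In 0 of the 28 was every p16High library below, against 7.45% of all. Without p16Low replicate 2, Sdf2l1, Creld2 and Manf joined the first set, making 11, against 12.7% of all genes, and Eif2ak3 alone stood in the second, against 16.9%. The 28 genes share libraries and regulators and are not replicates, and no gene among them passed the test.

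**Figure D1:**
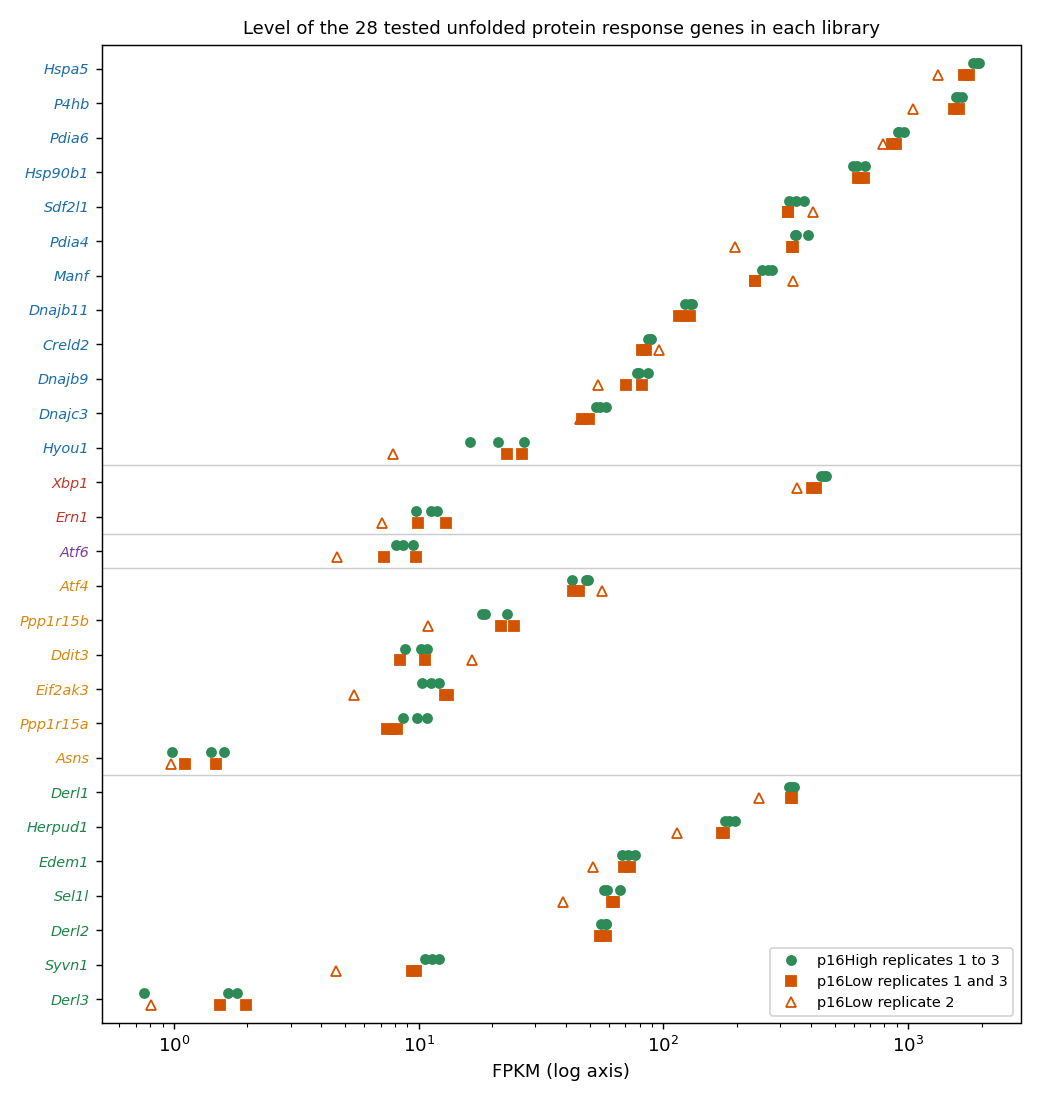
FPKM of each of the 28 tested genes on a log axis, grouped by role with chaperones and folding factors at the top and ER-associated degradation at the bottom. Green circles are the 3 p16High libraries, filled orange squares p16Low replicates 1 and 3, and open triangles p16Low replicate 2. Levels span from under 1 FPKM for Derl3 to 1942 FPKM for Hspa5, and the triangle is the lowest point for 18 genes.

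The chaperones and folding factors held most of the mRNA of these genes. Their summed level was 6270, 6491 and 6467 FPKM in p16High, against 6113, 5065 and 6018 FPKM in p16Low, out of 7550, 7792 and 7775 FPKM in p16High and 7365, 6039 and 7252 FPKM in p16Low for all 31 genes. The p16High sums were above all 3 p16Low sums, and the low sum was that of p16Low replicate 2. Of the 12 genes, 10 had a positive log2 fold change, 0 were called, and the median was 0.18, or 0.09 without p16Low replicate 2.

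Hspa5 (ENSMUSG00000026864, chr2:34771970-34777547) encodes BiP, the Hsp70 chaperone of the ER that also holds the sensors inactive. It was the 46th most abundant of the 10895 tested genes. Its level was 1833, 1913 and 1942 FPKM in p16High, against 1767, 1325 and 1684 FPKM in p16Low. Every p16High library was above every p16Low library. Its log2 fold change was 0.26 with all libraries (SE 0.137, limma adjusted p = 0.738) and 0.14 (SE 0.0619, adjusted p = 0.385) without p16Low replicate 2.

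Hsp90b1, the ER member of the Hsp90 family and the gene with both element copies shown above, was nearly level. It stood at 593, 617 and 666 FPKM in p16High, against 658, 634 and 624 FPKM in p16Low, and the groups overlapped. The difference of -0.03 on the log2 scale (SE 0.111) had a 95% interval of -0.28 to 0.22.

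The disulfide isomerases, which form and rearrange disulfide bonds, include Pdia4, Pdia6 and P4hb. Pdia4 had 349, 346 and 389 FPKM in p16High, against 336, 196 and 339 FPKM in p16Low. Pdia6 had 909, 963 and 920 FPKM in p16High, against 888, 787 and 861 FPKM in p16Low. In both genes p16High lay above p16Low without overlap, and p16Low replicate 2 was the lowest library. P4hb had 1569, 1653 and 1599 FPKM in p16High, against 1539, 1051 and 1608 FPKM in p16Low, where replicate 3 overlapped with p16High. The log2 fold changes with all libraries were 0.36 for Pdia4, 0.14 for Pdia6 and 0.22 for P4hb, and without p16Low replicate 2 they were 0.10, 0.09 and 0.03.

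The J-domain co-chaperones of BiP are Dnajb9, Dnajb11 and Dnajc3. Dnajc3 had 53.0, 58.1 and 54.9 FPKM in p16High, against 46.6, 45.8 and 49.9 FPKM in p16Low. The groups did not overlap. Leaving out p16Low replicate 2 changed its log2 fold change little, 0.22 with that library (SE 0.125, limma adjusted p = 0.747) and 0.19 without it. Dnajb9 had 78.1, 86.4 and 79.2 FPKM in p16High, against 81.9, 54.2 and 70.2 FPKM in p16Low. Dnajb11 had 129.0, 131.5 and 123.0 FPKM in p16High, against 128.5, 122.7 and 116.4 FPKM in p16Low. Both overlapped between the groups.

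Sdf2l1, Creld2 and Manf are small ER stress-induced proteins, Sdf2l1 a partner of BiP and its co-chaperones and Manf a secreted factor. They went the other way in p16Low replicate 2. Manf had 277, 267 and 252 FPKM in p16High, against 237, 339 and 236 FPKM in p16Low. Sdf2l1 had 375, 347 and 327 FPKM in p16High, against 323, 408 and 322 FPKM in p16Low. Creld2 had 88.0, 86.4 and 89.3 FPKM in p16High, against 81.7, 95.6 and 84.7 FPKM in p16Low. In all 3 genes p16Low replicate 2 was the highest library of the 6 and the other p16Low libraries were the lowest pair. The log2 fold change of Manf was -0.01 (SE 0.160, adjusted p = 0.986 in limma) with all libraries and 0.16 (SE 0.0689, adjusted p = 0.333) without that one, the lowest adjusted p any of the 28 genes reached in any alternative.

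Hyou1, an Hsp110-type exchange factor for BiP, varied most among the chaperones. It had 16.2, 21.1 and 27.0 FPKM in p16High, against 26.3, 7.88 and 23.0 FPKM in p16Low. The highest library exceeded the lowest 3.42-fold, and the sign of the difference rested on 1 library, with a log2 fold change of 0.29 (SE 0.396) with all libraries and -0.22 (SE 0.168) without p16Low replicate 2.

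The IRE1-XBP1 arm was measured through its sensor and its transcription factor. Xbp1 (ENSMUSG00000020484, chr11:5520659-5525893) ranked 256th among tested genes and had 442, 461 and 454 FPKM in p16High, against 419, 352 and 404 FPKM in p16Low. The p16High libraries were all above the p16Low libraries, at 0.21 on the log2 scale (SE 0.118, limma adjusted p = 0.747), or 0.14 (SE 0.0630, adjusted p = 0.393) without p16Low replicate 2. Ern1, which encodes IRE1, was far lower. It had 9.75, 11.2 and 11.9 FPKM in p16High, against 9.98, 7.06 and 12.9 FPKM in p16Low, a log2 fold change of 0.15 (SE 0.218) that turned to -0.05 without p16Low replicate 2. FPKM divides by 1 length per gene whichever transcripts are present, so the levels of these 2 genes compare only roughly. Ern1 lay between 7.06 and 12.9 FPKM, and its substrate Xbp1 between 352 and 461 FPKM.

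Atf6 is the 1 gene of the ATF6 arm. It had 9.48, 8.05 and 8.67 FPKM in p16High, against 7.25, 4.63 and 9.79 FPKM in p16Low. The lowest and the highest of the 6 libraries were both p16Low. It differed by 0.29 on the log2 scale (SE 0.240, limma adjusted p = 0.770), and by 0.04 (SE 0.163) without p16Low replicate 2.

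The PERK-ATF4 arm was low and divided. Its 9 genes summed to 102, 94.1 and 106 FPKM in p16High, against 102, 99.4 and 98.2 FPKM in p16Low, so the groups overlapped and p16Low replicate 2 lay between the others. Of its 6 tested genes, 4 had a positive log2 fold change and 0 were called, with a median of 0.11, or 0.04 without p16Low replicate 2.

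Eif2ak3, which encodes the sensor PERK, had 11.3, 10.3 and 12.2 FPKM in p16High, against 13.2, 5.44 and 12.9 FPKM in p16Low. Without p16Low replicate 2 every p16High library was below the remaining p16Low libraries, and the log2 fold change passed to -0.20 (SE 0.135, adjusted p = 0.611 in limma), against 0.18 (SE 0.295) with it. Atf4, the transcription factor of the arm, had 48.3, 42.5 and 49.2 FPKM in p16High, against 45.3, 56.1 and 42.7 FPKM in p16Low. Its log2 fold change was -0.03 (SE 0.151), and ATF4 is known to be set mainly by translation, which mRNA level does not show.

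Ddit3 (ENSMUSG00000025408, chr10:127290774-127296288) encodes CHOP, the factor of prolonged ER stress. It had 10.8, 10.2 and 8.80 FPKM in p16High, against 10.6, 16.5 and 8.42 FPKM in p16Low. Apart from p16Low replicate 2, all libraries lay between 8.42 and 10.8 FPKM. The log2 fold change of -0.18 (SE 0.235, adjusted p = 0.823 in limma) was the most negative of the 28 genes and became 0.06 without that library.

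The paired phosphatase subunits that reverse eIF2α phosphorylation are Ppp1r15a (GADD34), which stress induces, and Ppp1r15b, which is constitutive. Ppp1r15a had 9.82, 10.8 and 8.67 FPKM in p16High, against 8.17, 7.80 and 7.43 FPKM in p16Low. The groups did not overlap, and the log2 fold change was 0.29 with all libraries (SE 0.160) and also without p16Low replicate 2 (SE 0.152, limma adjusted p = 0.475). Ppp1r15b had 18.7, 18.2 and 23.1 FPKM in p16High, against 21.7, 10.9 and 24.5 FPKM in p16Low, and its log2 fold change of 0.13 (SE 0.275) became -0.20 without p16Low replicate 2.

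Of the genes that ATF4 induces, 4 of the 31 were barely detected: Asns, Atf5, Trib3 and Chac1. Asns, asparagine synthetase, passed the filter at 1.61, 0.986 and 1.41 FPKM in p16High, against 1.48, 0.973 and 1.11 FPKM in p16Low, which is 19 to 30 reads per library. Its log2 fold change of 0.09 (SE 0.192) is on a scale where a pseudocount of 1 pulls such low genes towards 0. The other 3 did not pass the filter and were not tested with limma. Atf5, a related transcription factor, ranged from 0.420 to 1.14 FPKM in p16High and from 0.323 to 1.07 FPKM in p16Low. Trib3, a pseudokinase that feeds back on the arm, ranged from 0.290 to 1.20 FPKM in p16High and from 0.462 to 0.846 FPKM in p16Low. Of the 4 genes, Asns, Chac1 and Trib3 carry the ATF4 element printed above.

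Chac1, a glutathione-degrading enzyme induced by ATF4 and CHOP, was the rarest of the 31 genes, at up to 0.518 FPKM in p16High and up to 0.0331 FPKM in p16Low. Its whole reads were 4, 4 and 14 in p16High, against 1, 1 and 0 in p16Low. Summed to 22 against 2, this is a ratio of 11.9 per library total, with a 95% interval of 2.92 to 104.3 that covers counting error only. p16High replicate 3 gave 14 of the 22 reads, and without it the ratio was 6.18 (1.23 to 59.7). With no filter on level, the adjusted p of Chac1 in limma was 0.822. The summed reads of Trib3 were 47 in p16High and 40 in p16Low, a ratio of 1.27 (0.815 to 1.99), and those of Atf5 were 55 and 61, a ratio of 0.975 (0.664 to 1.43).

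The 7 genes of ER-associated degradation, which carries misfolded proteins out of the ER to the proteasome, summed to 716, 726 and 727 FPKM in p16High, against 713, 510 and 708 FPKM in p16Low. Of the 7, 6 had a positive log2 fold change and 0 were called. The median was 0.17, and 0.02 without p16Low replicate 2.

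Syvn1 (ENSMUSG00000024807, chr19:6046576-6053712) encodes the ubiquitin ligase HRD1 of this pathway and had the highest log2 fold change of the 28 genes. It had 10.6, 11.4 and 12.1 FPKM in p16High, against 9.44, 4.59 and 9.76 FPKM in p16Low. The groups did not overlap, and p16Low replicate 2 was the lowest library. Its log2 fold change was 0.53 (SE 0.256, 95% interval -0.05 to 1.11, adjusted p = 0.731 in limma), and 0.22 (SE 0.137, adjusted p = 0.569) without that library. Sel1l, the adaptor that stabilises HRD1, had 58.7, 66.3 and 57.05 FPKM in p16High, against 62.9, 38.7 and 61.9 FPKM in p16Low, and its log2 fold change of 0.18 was -0.04 without p16Low replicate 2.

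Herpud1, a membrane scaffold of the HRD1 complex and the gene with both a short stress element and an ATF4 element above, had 185, 196 and 179 FPKM in p16High, against 177, 114 and 173 FPKM in p16Low. The groups did not overlap, at 0.30 on the log2 scale (SE 0.178, limma adjusted p = 0.747), and at 0.09 without p16Low replicate 2. Edem1, a mannosidase-like protein that marks glycoproteins for removal, had 71.9, 67.8 and 76.8 FPKM in p16High, against 69.1, 51.6 and 73.3 FPKM in p16Low. Its log2 fold change was 0.17, and 0.02 without that library.

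The derlins are membrane proteins of the export channel. Derl1 had 331, 327 and 341 FPKM in p16High, against 335, 245 and 333 FPKM in p16Low, and Derl2 had 58.2, 55.7 and 58.5 FPKM in p16High, against 58.2, 55.8 and 54.9 FPKM in p16Low. Derl2 varied least of the 28 genes, 1.07-fold from lowest to highest library. Derl3 had 0.754, 1.66 and 1.81 FPKM in p16High, against 1.97, 0.809 and 1.55 FPKM in p16Low, on 11 to 28 reads per library. The log2 fold changes were 0.15 for Derl1, 0.03 for Derl2 and -0.02 for Derl3. Derl3 stood far below its paralogs in every library.

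**Figure D2:**
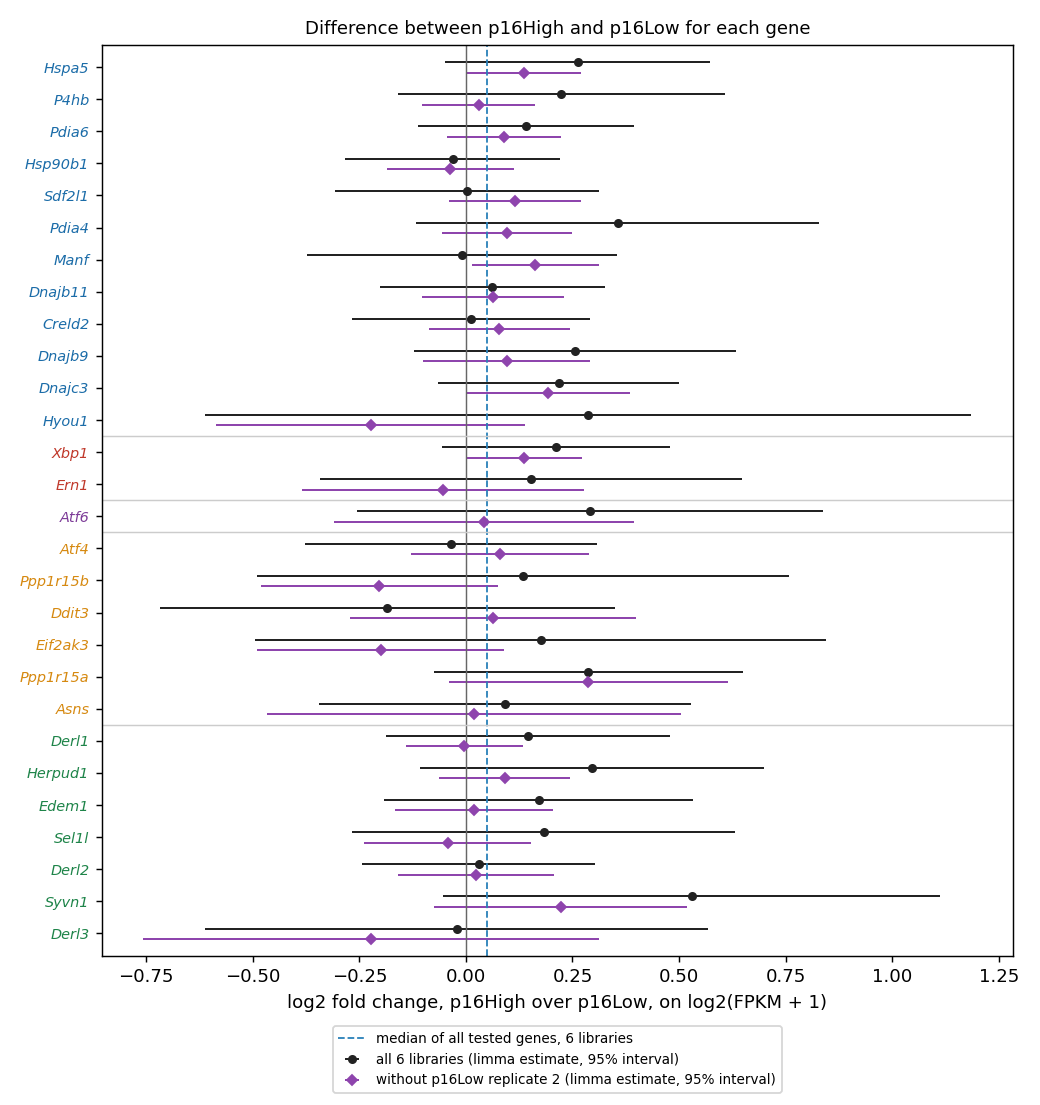
Log2 fold change, p16High over p16Low, of each tested gene on log2(FPKM + 1), with its 95% interval from limma. Black circles use all 6 libraries and purple diamonds leave out p16Low replicate 2, and the dashed line is the median of all tested genes, 0.051. Every black interval includes 0, and most diamonds lie nearer 0 with shorter intervals. The purple intervals lie just above 0 for 4 genes, Hspa5, Dnajc3, Manf and Xbp1, none of which passed the adjusted threshold.

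Much of the spread of these genes lay in p16Low replicate 2. It was the lowest of the 6 libraries for 18 of the 28 genes (64.3%), against 46.5% of all tested genes, and the highest for 5 (17.9%), against 24.4%. Those 5 were Sdf2l1, Creld2, Manf, Atf4 and Ddit3. Without it, 9 of the 28 genes changed the sign of their difference. The highest library was p16High replicate 2 for 9 genes and p16High replicate 3 for 8.

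**Figure D3:**
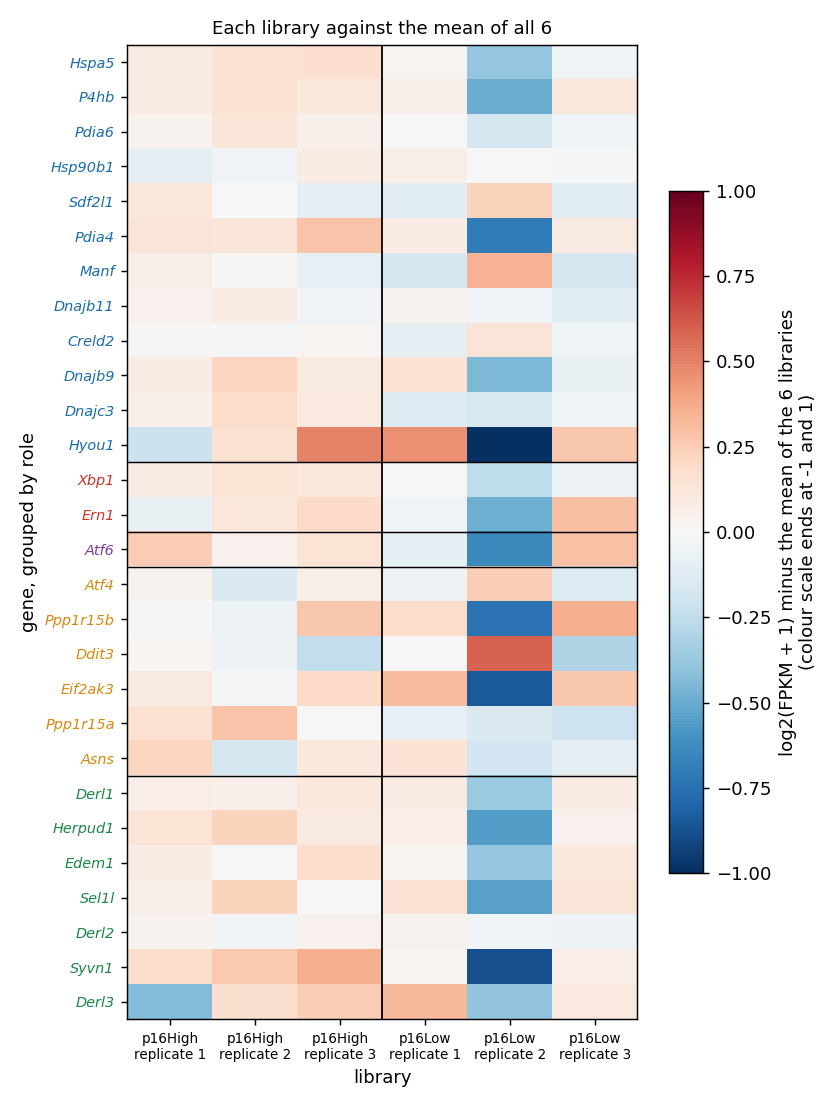
Each cell is log2(FPKM + 1) of 1 gene in 1 library minus its mean over the 6 libraries, with p16High to the left of p16Low and genes grouped by role. The column of p16Low replicate 2 holds the deepest blue cells, such as Hyou1, Syvn1 and Eif2ak3, and the reddest, Ddit3, while the other columns stay mostly pale.

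The difference of p16Low replicate 2 from the other p16Low libraries moved with gene length, that is, the length by which the reads were divided. Over the 28 genes its median was -0.41 on the log2 scale, with 21 genes negative and 7 positive, and its Spearman correlation with length was -0.47. Over all 10895 tested genes this correlation was -0.43. The same measure for p16High replicates 1, 2 and 3, each against the other p16High libraries, was -0.31, -0.19 and 0.28 over the 28 genes, and -0.17, 0.14 and 0.01 over all tested genes. These correlations are over genes of the same libraries and describe them only. In 4 groups of genes ranked by length, at medians of 790, 1332, 1924 and 3046 bases, the median difference of all genes was 0.27, -0.20, -0.37 and -0.40. Among the members, Ddit3 at 819 bases and Manf at 837 bases were higher in that library, and Hyou1 at 2614 bases and Ppp1r15b at 4641 bases were lower. Dnajc3, the longest at 5141 bases, was only slightly lower, at -0.07, and Derl3 at 770 bases went against the trend, at -0.60. The part of length in the differences between p16High and p16Low was not tested.

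**Figure D4:**
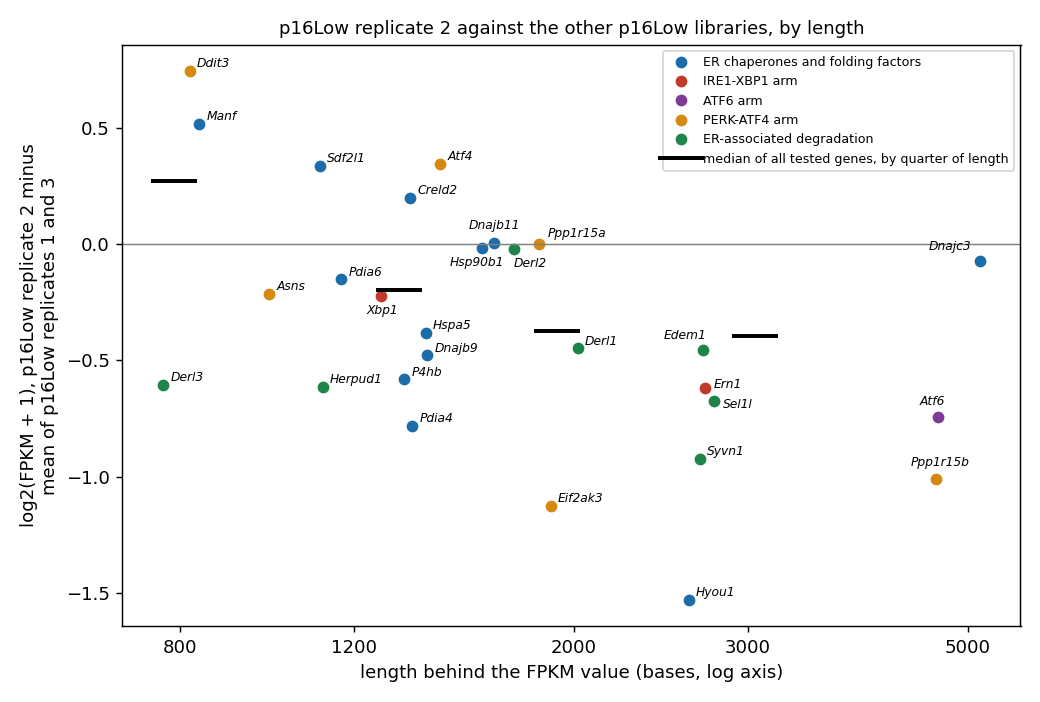
Log2(FPKM + 1) in p16Low replicate 2 minus the mean of p16Low replicates 1 and 3, against the length behind each FPKM value on a log axis, for the 28 genes coloured by role. Black bars are the medians of all tested genes in 4 groups ranked by length, 0.27 for the shortest and -0.40 for the longest. Ddit3 and Manf, which are short, lie above 0, and Hyou1 and Ppp1r15b, which are long, lie below it. Other short genes, such as Derl3 and Asns, also lie below 0.

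The wider pathway was measured with 5 further lists, and limma called 0 genes in each with all libraries. Beside these lists and those below, 58.1% of all tested genes were positive, at a median of 0.051. Without p16Low replicate 2, 45.4% of all tested genes were positive, at a median of -0.019, and limma called 2.76%. Other ER folding genes had 16 of 20 positive, at a median of 0.15, and 11 of 20, at 0.03, without p16Low replicate 2. The smallest p was that of Sil1, an exchange factor for BiP, with 85.4, 89.4 and 74.8 FPKM in p16High, against 60.3, 54.7 and 62.7 FPKM in p16Low. This was 0.48 on the log2 scale (SE 0.133, limma adjusted p = 0.249). Ero1l, the oxidase that recharges disulfide isomerases, and Txndc11, a thioredoxin-domain protein of the ER, followed at 0.28 and 0.38, both at an adjusted p above 0.7 in limma. Without p16Low replicate 2, Sil1 (0.43, adjusted p = 0.0223) and Sdf2, the paralog of Sdf2l1 (0.34, adjusted p = 0.0289), passed the limma threshold.

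Genes of translocation into the ER had 10 of 18 positive, at a median of 0.03. Without p16Low replicate 2 this list had 1 of 18 positive and 17 negative, at a median of -0.085. Ssr2, a subunit of the translocon-associated complex, had 107.8, 107.2 and 111.7 FPKM in p16High, against 149.6, 168.5 and 139.2 FPKM in p16Low. All p16High libraries were below all p16Low libraries, at -0.48 on the log2 scale (SE 0.124, limma adjusted p = 0.199), and without p16Low replicate 2 it was called (-0.40, adjusted p = 0.00837). Sec61g, a channel subunit, and Sec62, a channel partner, stood at -0.43 and -0.30 on the log2 scale.

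Other genes of ER-associated degradation had 15 of 19 positive, at a median of 0.16, and 13 of 19, at 0.05, without p16Low replicate 2. The smallest p-values belonged to Edem3, a paralog of Edem1, to Os9, a lectin of the HRD1 complex, and to Ube2g2, a ubiquitin-conjugating enzyme, with log2 fold changes of 0.53, 0.36 and 0.27. The list of other sensors, kinases and regulators had 16 of 24 positive, at a median of 0.08. Without p16Low replicate 2 it had 13 of 24, at 0.009. With all libraries the smallest p-values were as follows. Wfs1, an ER membrane protein that restrains ATF6, led it with 6.18, 6.89 and 6.46 FPKM in p16High, against 3.61, 2.94 and 5.36 FPKM in p16Low. This was 0.63 on the log2 scale (SE 0.209, limma adjusted p = 0.450). Map3k5, the kinase ASK1, and Atf6b, the paralog of Atf6, stood at 0.57 and 0.37 with overlapping groups.

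Genes of the amino acid response, the other output of ATF4, had 13 of 25 positive, at a median of 0.02. Without p16Low replicate 2 they had 9 of 25 positive, at a median of -0.11. Psat1, an enzyme of serine synthesis, had 18.7, 16.6 and 19.9 FPKM in p16High, against 34.1, 25.6 and 29.8 FPKM in p16Low. Shmt2, which passes serine carbon to mitochondrial folate, had 18.7, 18.8 and 17.3 FPKM in p16High, against 26.4, 21.9 and 31.1 FPKM in p16Low. Both were lower in p16High in every library, at log2 fold changes of -0.66 (SE 0.160, adjusted p = 0.152 in limma) and -0.50 (SE 0.164, adjusted p = 0.435). Both were called without p16Low replicate 2, at -0.76 (adjusted p = 0.00257) and -0.62 (adjusted p = 0.00928). Slc7a5, an amino acid transporter, stood at -0.36 with no call in either fit.

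Lists of other cells and of sample handling were read beside these values. Of 8 macrophage markers 6 were positive, and they summed to between 78875 and 80056 FPKM in p16High, against 83333 to 87059 FPKM in p16Low, most of it from Lyz2. Their median log2 fold change was 0.16. Without p16Low replicate 2, 4 of the 8 were positive, at a median of -0.03. F4/80 itself (Adgre1) had 2425, 2596 and 2751 FPKM in p16High, against 2374, 1236 and 2326 FPKM in p16Low, again lowest in replicate 2. Cd68 had a log2 fold change of 0.25, and was the 1 macrophage marker called without p16Low replicate 2 (0.27, limma adjusted p = 0.0318). Plasma cells run this pathway at high level. The 9 markers of B and plasma cells summed to 113, 106 and 178 FPKM in p16High, against 199, 220 and 198 FPKM in p16Low, and all 6 tested were negative, at a median of -0.82. All 6 had an unadjusted p under 0.05 in limma and 0 were called with all libraries, while 2 were called lower in p16High without p16Low replicate 2. Igkc, Ighm and Cd79b were the most abundant, and 3 of the 9 were under 1 FPKM in every library. In bulk RNA, fewer cells of a type and less RNA per cell cannot be told apart, and the part of B cells in the values above was not tested.

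Markers of mast cells summed to between 1.15 and 3.64 FPKM in p16High, against 0 to 0.235 FPKM in p16Low, led by Cpa3, Cma1 and Tpsb2, with 1 of 6 at 0 in every library. Those of T and NK cells summed to at most 0.242 FPKM in p16High and 0.401 FPKM in p16Low, with 2 of 5 at 0 throughout, and those of mesothelium to at most 0.156 FPKM in p16High and 0 in p16Low, with 3 of 5 at 0 throughout. Heat shock genes, which answer to sample handling, had 7 of 9 positive, at a median of 0.22, and summed to 1195, 1243 and 1300 FPKM in p16High, against 1193, 1094 and 1131 FPKM in p16Low. For 4 of the 9 (44.4%) the groups did not overlap with p16High higher, against 8.4% of all tested genes. Hspa8, Hsp90aa1 and Hspe1 were the most abundant of them. Immediate early genes had 9 of 9 positive, at a median of 0.13, and summed to 1080, 1125 and 1032 FPKM in p16High, against 1051, 949 and 1064 FPKM in p16Low, led by Dusp1, Junb and Fos. Without p16Low replicate 2, heat shock genes had 6 of 9 positive, at a median of 0.13. Immediate early genes then had 7 of 9 positive, at a median of 0.06. The part of handling in the lean of the unfolded protein response genes was not tested.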

How the data were processed

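The deposited table holds FPKM per gene and library, made by the authors. Per the submitters' processing notes the tools were HTSeq 0.6.1, TopHat2 2.0.12 and Bowtie2 2.2.3, without their roles. In the sources used here no genome build was given. Of the gene IDs, 54494 were in GENCODE M21 and 98.3% of these had the same coordinates, so positions are on GRCm38. Whole reads were worked back from FPKM: with the annotated mean transcript length 96.2% of genes above 0 gave whole reads within 0.001 of a read, and all did after a search over lengths, of which 285 of 859 searched genes allowed several.

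Genes that reached 1 FPKM in at least 3 libraries entered the test, made with limma 3.58.1 (R 4.3.3) on log2(FPKM + 1), using group, a trended empirical Bayes step and Benjamini-Hochberg adjustment at 0.05 over 10895 genes. Every adjusted p is from limma. The pseudocount of 1 understates changes of low genes. The script was run on simulated data with known changes and independent normal spread. Those data had no library that stood apart, so this check does not cover the shift of p16Low replicate 2. Read ratios carry exact 95% Poisson-based intervals for counting error only, with PCR copies not told apart. The labels do not say that replicate numbers pair the groups, so they were not taken as pairs. Same-numbered libraries correlated at -0.19, -0.17 and 0.01 in their deviations from the group means. With 3 libraries per group, and p16Low replicate 2 apart from the others, these values cannot decide whether the groups are paired.

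The genes and lists were chosen with earlier results of these data known. All 31 genes are named. Of other pathway lists, called genes and the 3 with the smallest p are named, and of other-cell and handling lists the 3 most abundant. 1 list symbol, Hm13, had no row matched here. Alternatives were a pseudocount of 0.1, no filter, a filter on mean FPKM, median-of-ratios and quantile scaling, limma-voom, a replicate block and each library left out. The no-overlap count without p16Low replicate 2 was added after seeing the data. Promoter windows are from RefSeq, matched by symbol.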

Additional observations from a re-analysis of the deposited data

How the results depend on the processing

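Limma called 0 of the tested unfolded protein response genes in all 13 alternatives. The number of genes called over the table was 97, and 93 with a pseudocount of 0.1, 94 with a filter on mean FPKM, 115 with median-of-ratios scaling, 105 with quantile normalization, 88 with limma-voom, 67 with the replicate block (9 higher, 58 lower) and 9 with no filter, where 22566 genes were tested. Leaving out 1 library gave 21, 17 and 25 without p16High replicates 1, 2 and 3, and 26, 301 and 32 without p16Low replicates 1, 2 and 3. The median log2 fold change stayed positive for each role group with 2 or more tested genes. With 1 library left out it ran from 0.093 to 0.20 for chaperones and folding factors, lowest without p16Low replicate 2, and from 0.042 to 0.22 for the PERK-ATF4 arm, highest without p16Low replicate 1. For all 28 genes it was 0.11 with median-of-ratios scaling, and 0.06 to 0.26 with 1 library left out.

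The sign of some genes turned, and the cause was not tested. Median-of-ratios scaling, which moves the median of all genes to 0.003, gave -0.053 for Sdf2l1, -0.043 for Creld2 and -0.025 for Derl2. Quantile normalization gave 0.0056 for Hsp90b1 and 0.041 for Manf. With 1 library left out the ranges were -0.077 to 0.0067 for Hsp90b1, -0.055 to 0.11 for Sdf2l1, -0.034 to 0.078 for Creld2, -0.10 to 0.16 for Manf, -0.22 to 0.59 for Hyou1, -0.054 to 0.34 for Ern1, -0.20 to 0.37 for Eif2ak3, -0.11 to 0.080 for Atf4, -0.38 to 0.064 for Ddit3, -0.20 to 0.34 for Ppp1r15b, -0.042 to 0.30 for Sel1l, -0.0035 to 0.22 for Derl1 and -0.22 to 0.19 for Derl3.

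The replicate block changed no call among the 28 genes. In this balanced layout the block leaves every log2 fold change as it was, so no sign could turn. The labels do not say whether replicate numbers pair the groups, so the block is not read as a paired analysis. Groups of 3 libraries, of unknown animals, limit the precision. At these depths, Atf5, Trib3, Chac1, Asns and Derl3 rest on under 32 reads per library, so counting error weighs most on them.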
